A study of Mus musculus with 6 samples.

Results

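The 10 genes described here mark macrophages and other leukocytes, and were measured in mouse first molar tooth germs with and without the adhesion G protein-coupled receptor Gpr115. They were the 10 genes whose symbol in the deposited normalized table was C1qa, C1qb, C1qc, Csf1r, Cd68, Lyz2, Tyrobp, Fcer1g, Itgam or Ptprc, out of 48709 gene rows counted. There were 3 Gpr115-KO libraries, labelled with the genotype Gpr115-/-, and 3 wild-type (WT) libraries from their littermates. All 6 libraries came from C57BL/6 animals at postnatal day 7, when the enamel epithelium passes from secretion to maturation. The labels do not say which exons were deleted, in which cells the deletion arose or whether a library pooled germs, so p-values measure only the spread between these libraries.

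Macrophages are resident phagocytes of most developing tissues, where they clear dying cells and remodel matrix. Their survival depends on the receptor Csf1r. They are also a main source of C1q, the protein that opens the classical complement pathway by binding antibody complexes or dying cells and activating the proteases C1r and C1s. C1q is assembled from equal numbers of A, B and C chains, each with a collagen-like stalk and a globular head. Tyrobp and Fcer1g are small adaptor proteins that carry an activation motif for Syk-type kinases and serve many myeloid receptors. In bulk tissue, fewer cells of a type and less RNA per cell cannot be told apart.

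The libraries held 8317302 to 10328654 counts in Gpr115-KO and 8833612 to 11122821 in WT, and a single count was worth 0.0907 to 0.114 CPM, the read count scaled to a common library size by the trimmed mean of M values (TMM). Genes of the enamel and dentin cells were abundant, with Amelx, encoding amelogenin, at 22780 to 46000 CPM in Gpr115-KO and 20770 to 25840 CPM in WT. Of the 10 tooth germ genes listed none was called, and their median log2 fold change was −0.04, with Amelx at 0.52 (SE 0.30) and Mmp20, an enamel protease, at 0.39 (SE 0.23). The targeted gene, listed as Adgrf4, had 39.2, 20.6 and 27.5 CPM in Gpr115-KO and 67.1, 62.5 and 67.5 CPM in WT (log2 fold change −1.18, SE 0.21, edgeR adjusted p = 0.0887). Over all 16011 tested genes, 24 (0.15%) had an edgeR adjusted p under 0.05 and are referred to as called.

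The C1q genes lie side by side on the minus strand of chromosome 4 (GRCm38): C1qb at 136880129 to 136886187, C1qc at 136889804 to 136893065 and C1qa at 136895917 to 136898803. Promoter windows from RefSeq (GRCm38.p6, 250 bases before to 50 bases after the start) are shown for both of the C1q genes that had an entry, as neighbours in this cluster, and for Lyz2, which with C1qa had the highest values relative to WT. Capitals mark the PU box GAGGAA, a purine-rich sequence bound by the myeloid factor PU.1, searched on both strands, so that TTCCTC is the same box on the other strand.
C1qb, chr4:136886151-136886450, minus strand: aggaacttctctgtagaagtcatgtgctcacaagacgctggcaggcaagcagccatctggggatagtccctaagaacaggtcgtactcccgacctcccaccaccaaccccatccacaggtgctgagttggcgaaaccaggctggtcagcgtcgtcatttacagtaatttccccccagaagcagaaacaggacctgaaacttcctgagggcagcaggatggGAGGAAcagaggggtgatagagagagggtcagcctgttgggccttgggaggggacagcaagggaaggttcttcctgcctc
C1qc, chr4:136892865-136893164, minus strand: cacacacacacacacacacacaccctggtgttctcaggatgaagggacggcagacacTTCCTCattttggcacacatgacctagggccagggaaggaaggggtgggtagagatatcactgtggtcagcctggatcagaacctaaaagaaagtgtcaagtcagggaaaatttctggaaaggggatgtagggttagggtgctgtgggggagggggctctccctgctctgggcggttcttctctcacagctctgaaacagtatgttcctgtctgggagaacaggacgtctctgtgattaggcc
Lyz2, chr10:117282223-117282522, minus strand: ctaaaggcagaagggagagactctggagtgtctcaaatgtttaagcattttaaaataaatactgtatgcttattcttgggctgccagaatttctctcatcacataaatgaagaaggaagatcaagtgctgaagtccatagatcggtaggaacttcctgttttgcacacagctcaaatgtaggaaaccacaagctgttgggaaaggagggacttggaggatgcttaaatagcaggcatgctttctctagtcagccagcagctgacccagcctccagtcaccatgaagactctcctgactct
The box began 30 bases before the start of C1qb and, on the other strand, 193 bases before that of C1qc, and it was not in the Lyz2 window. Of the 8 windows that belonged to 7 of the 10 genes and are used here, 5 held it, in C1qb, C1qc, Cd68, Itgam and Ptprc. C1qa and Tyrobp had no entry under their symbols, and Csf1r was left out of this search. Over all genes 28.3% of 32851 windows held it. Because Csf1r was left out, the share among the 8 windows cannot be compared with that value. A match is a string of letters, not a shown binding site.

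C1qa, encoding the A chain of C1q, had all 3 Gpr115-KO libraries above all 3 WT libraries. Its level was 10.5, 14.0 and 12.4 CPM in Gpr115-KO replicates 1 to 3 and 6.53, 6.71 and 7.62 CPM in WT replicates 1 to 3. These rest on 92, 131 and 135 counts in Gpr115-KO and 72, 59 and 75 counts in WT. The group means were 12.3 ± 1.76 CPM in Gpr115-KO and 6.95 ± 0.587 CPM in WT (SD, n = 3 each), with a log2 fold change of 0.82 (SE 0.22, 95% interval 0.34 to 1.30). The edgeR adjusted p was 0.223 over all tested genes, so C1qa did not pass the 0.05 threshold (unadjusted p = 0.0033).

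The other chains did not separate the genotypes. C1qb, encoding the B chain, had 17.0, 30.6 and 31.7 CPM in Gpr115-KO and 17.0, 20.3 and 25.7 CPM in WT. Gpr115-KO replicate 1 stood at the level of the lowest WT library, while replicates 2 and 3 were above all WT libraries. C1qc, encoding the C chain, had 8.20, 14.8 and 15.3 CPM in Gpr115-KO and 12.9, 10 and 12.8 CPM in WT. Here Gpr115-KO replicate 1 was the lowest of the 6 libraries and replicates 2 and 3 the highest. The log2 fold changes were 0.34 for C1qb (SE 0.25, 95% interval −0.23 to 0.89, edgeR adjusted p = 0.625) and 0.10 for C1qc (SE 0.26, 95% interval −0.47 to 0.67, edgeR adjusted p = 0.906). That of C1qb ran from 0.18 without Gpr115-KO replicate 3 to 0.57 without Gpr115-KO replicate 1.

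**Figure D1:**
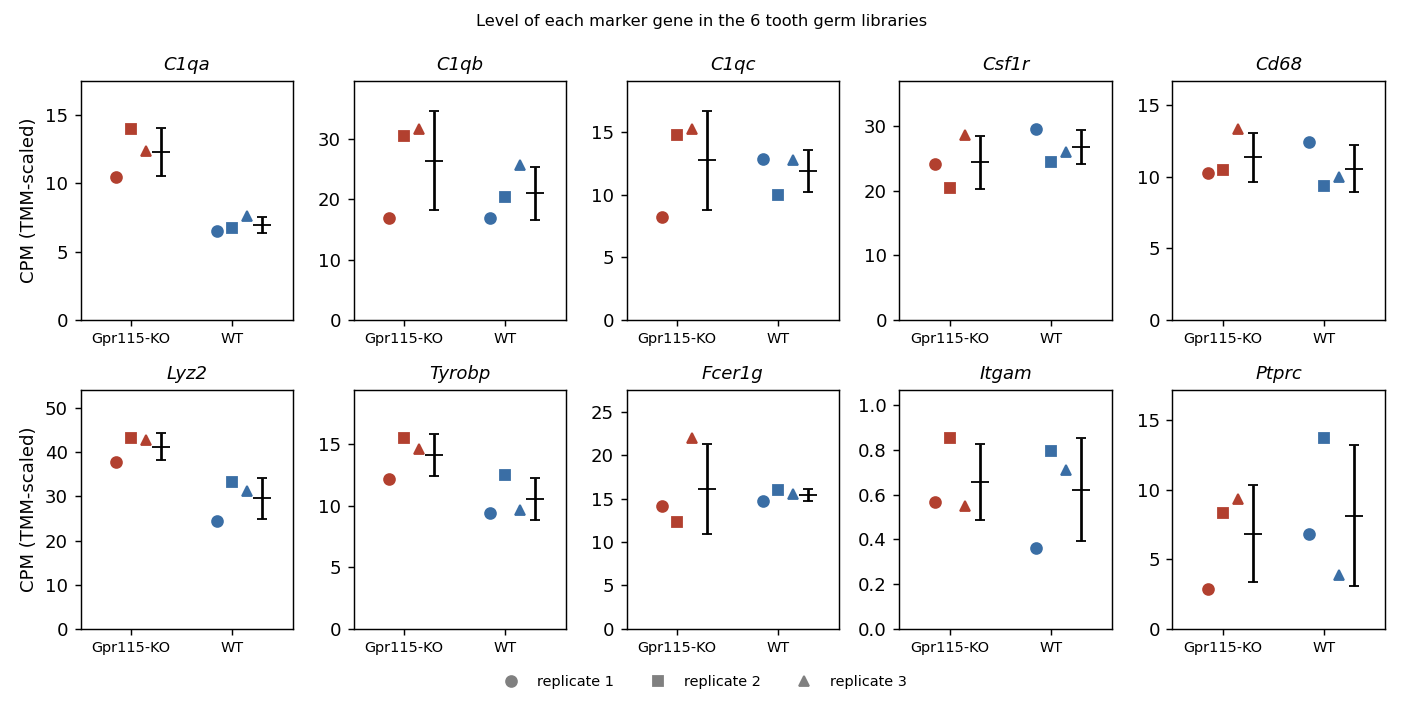
Normalised read count (CPM scaled by TMM, linear axis from 0, a separate scale for each gene) of the 10 genes in the 3 Gpr115-KO libraries (left, red) and the 3 WT libraries (right, blue), with marker shape for the replicate number and a bar for the mean ± SD (n = 3). C1qa and Lyz2 are the genes whose Gpr115-KO libraries all lie above the WT libraries.

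The make-up of the C1q reads was taken from the same counts, so it adds no separate evidence on C1qa. The shares of the 3 chains make up a whole, so a higher share of a chain lowers the others together. How often shares of other genes separate the groups was not counted. C1qa took 29.4% (95% Wilson interval 24.6% to 34.7%), 23.6% (20.3% to 27.3%) and 20.8% (17.9% to 24.1%) of the summed C1q counts in Gpr115-KO replicates 1 to 3. In WT its share was 18.0% (14.5% to 22.0%), 18.1% (14.3% to 22.6%) and 16.5% (13.4% to 20.2%). The 3 Gpr115-KO shares were all above the WT shares, although the counting intervals of Gpr115-KO replicates 2 and 3 overlap those of WT libraries. C1qc took 23.0%, 24.9% and 25.7% of the C1q counts in Gpr115-KO and 35.4%, 27.0% and 27.8% in WT, so its shares were all lower in Gpr115-KO. C1qb held the highest share in every library, 47.6% to 53.5% in Gpr115-KO and 46.6% to 55.7% in WT. A share within a library does not depend on library scaling, but the gene length trend described below does not cancel in it. C1qa has 1040 exonic bases and C1qc 1931, and the part of that trend in the shares was not tested. The share was chosen for display after its values were seen and was given no test, and the intervals cover counting error only.

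**Figure D2:**
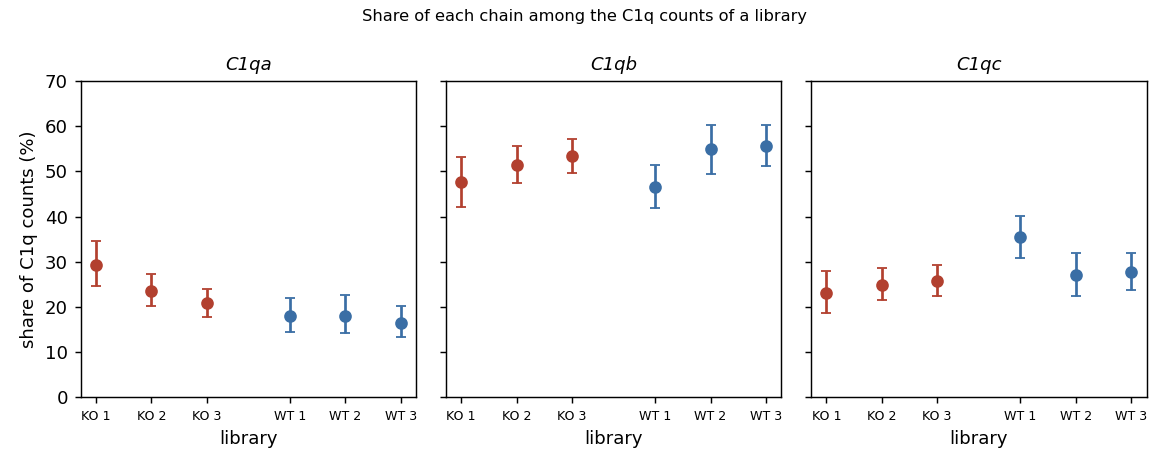
Share of C1qa, C1qb and C1qc (percent, axis from 0) among the summed C1q counts of each library, Gpr115-KO (KO, red) left of WT (blue), with 95% Wilson intervals for counting error. The C1qa share is 20.8% to 29.4% in the Gpr115-KO libraries and 16.5% to 18.1% in the WT libraries.

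Csf1r, the receptor that macrophages need for survival, lies on the plus strand of chromosome 18 at 61100598 to 61132149. It had 24.0, 20.4 and 28.6 CPM in Gpr115-KO and 29.6, 24.4 and 26.0 CPM in WT. The groups overlapped, with Gpr115-KO replicate 2 the lowest library and WT replicate 1 the highest. The log2 fold change was −0.13 (SE 0.18, 95% interval −0.52 to 0.26, edgeR adjusted p = 0.808), and it ran from −0.26 without Gpr115-KO replicate 3 to −0.02 without Gpr115-KO replicate 2. Csf1r shares 873 exonic bases with Hmgxb3 on the opposite strand, and with an unstranded kit reads of that stretch cannot be assigned to either gene. Hmgxb3 itself had 17.8 ± 1.21 CPM in Gpr115-KO and 23.6 ± 5.93 CPM in WT (SD, n = 3 each).

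Cd68, a glycoprotein of the lysosomes of phagocytes (chromosome 11, 69664213 to 69666153), also overlapped between genotypes. It had 10.3, 10.5 and 13.4 CPM in Gpr115-KO and 12.4, 9.32 and 9.96 CPM in WT. Its log2 fold change was 0.10 (SE 0.22, 95% interval −0.38 to 0.59, edgeR adjusted p = 0.881).

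Lyz2 encodes the lysozyme of macrophages and neutrophils (chromosome 10, 117277331 to 117282321). It had 37.7, 43.3 and 42.9 CPM in Gpr115-KO and 24.4, 33.3 and 31.2 CPM in WT. Each Gpr115-KO library was above each WT library, with WT replicate 1 the lowest. The means were 41.3 ± 3.11 CPM in Gpr115-KO and 29.6 ± 4.66 CPM in WT (SD, n = 3 each), a log2 fold change of 0.48 (SE 0.17, 95% interval 0.11 to 0.85), which did not pass over all tested genes (edgeR adjusted p = 0.296, unadjusted p = 0.0151). Its neighbour Lyz1 has a transcript 95.8% identical over 1264 bases, and the handling of reads common to both is not stated. Lyz1 was listed with at most 3 counts in any library.

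Tyrobp and Fcer1g, the adaptor genes, were measured at similar levels. Tyrobp (chromosome 7, 30413760 to 30417585) had 12.2, 15.5 and 14.6 CPM in Gpr115-KO and 9.43, 12.5 and 9.66 CPM in WT. Gpr115-KO replicate 1 fell just below WT replicate 2, the only crossing between the groups, and the log2 fold change was 0.43 (SE 0.21, 95% interval −0.04 to 0.89, edgeR adjusted p = 0.445). Fcer1g (chromosome 1, 171229572 to 171234365) had 14.1, 12.3 and 22.0 CPM in Gpr115-KO and 14.7, 16.0 and 15.6 CPM in WT. Gpr115-KO replicates 1 and 2 were below and replicate 3 above all WT libraries, and the log2 fold change was 0.07 (SE 0.23, 95% interval −0.45 to 0.59, edgeR adjusted p = 0.926).

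Ptprc, the general leukocyte marker, and Itgam, a myeloid marker, gave little information. Ptprc, which encodes the surface phosphatase CD45 of nearly all white blood cells (chromosome 1, 138062861 to 138175708), had 2.85, 8.34 and 9.33 CPM in Gpr115-KO and 6.80, 13.8 and 3.86 CPM in WT. The highest library was 3.28 times the lowest in Gpr115-KO and 3.56 times in WT, against 1.091 to 1.869 times within a group for the other tested genes. The log2 fold change was −0.24 (SE 0.52, 95% interval −1.41 to 0.94, edgeR adjusted p = 0.889). Itgam, which encodes an integrin chain of myeloid cells that binds cleaved C3 (chromosome 7, 128062640 to 128118491), had 5, 8 and 6 counts in Gpr115-KO and 4, 7 and 7 counts in WT. It did not pass the count filter, and a difference was not detectable at this depth. Its annotation shares 3450 exonic bases with Gm49368 on the same strand, a gene with 0 counts in every library, so reads that fit both may not have been counted for Itgam.

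Of the 10 genes 9 were tested, and none was called higher (0.0375% of all tested genes were) and none lower (0.112%). DESeq2, which called 1.69% of the genes it gave an adjusted p, also called none of the 9. At an unadjusted p under 0.05 there were 2, C1qa and Lyz2, both higher in Gpr115-KO, where 12.3% of all tested genes passed in either direction and 4.85% passed upward. C1qa and Lyz2 were also the 2 of 9 with every Gpr115-KO library above every WT library, which held for 8.55% of tested genes, and none of the 9 had every Gpr115-KO library below every WT library, which held for 8.99%. The fitted change was above 0 for 7 of 9 and the median log2 fold change was 0.10, against 51.3% and 0.01 for all tested genes. The 10 genes summed to 137, 171 and 191 CPM in Gpr115-KO and 134, 147 and 143 CPM in WT, so that Gpr115-KO replicates 2 and 3 stood above the WT range and replicate 1 within it. The adjusted p of C1qa ran from 0.0877 with DESeq2 to 0.716 without WT replicate 1 over 15 alternatives, with a log2 fold change of 0.67 to 0.92. That of Lyz2 ran from 0.237 to 0.814, with 0.36 to 0.57.

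Short genes were higher in Gpr115-KO than long ones over the whole table. In protein-coding genes ranked by exonic length into 5 groups, the median log2 fold change was 0.15 among the shortest and −0.14 among the longest. C1qa, C1qb, C1qc, Cd68, Lyz2, Tyrobp and Fcer1g have 667 to 1931 exonic bases and fall in the shortest group, while Csf1r has 5774 and Ptprc 18313. With the trend of each library on length removed, the log2 fold change was 0.67 for C1qa (edgeR adjusted p = 0.297), 0.37 for Lyz2 (0.412), 0.21 for Tyrobp (0.757) and 0.20 for C1qb (0.802). It was 0.03 for C1qc and −0.07 for Csf1r, and Cd68, Fcer1g and Ptprc changed sign, to −0.01, −0.08 and 0.06.

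**Figure D3:**
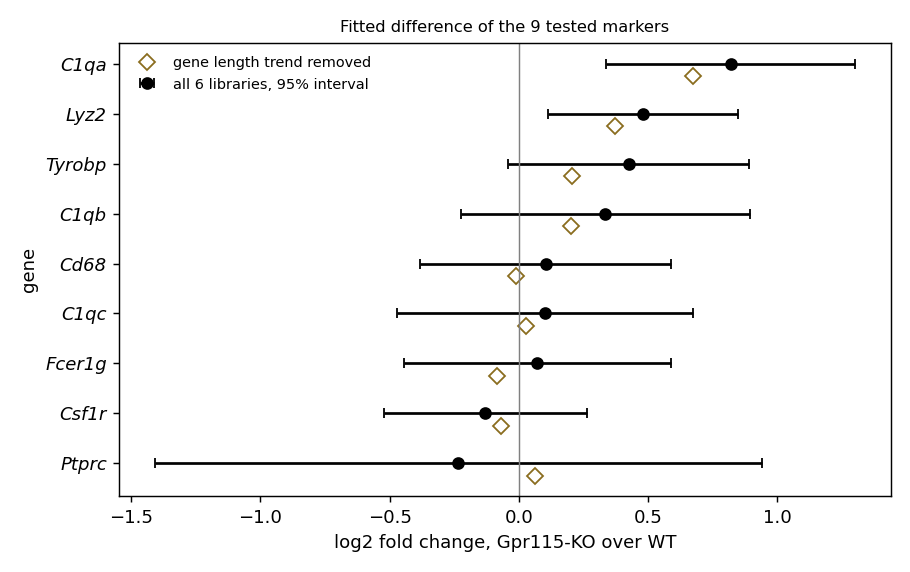
Log2 fold change of Gpr115-KO over WT for the 9 tested genes, with 95% intervals from edgeR's quasi-likelihood fit (black) and the value after each library's trend on gene length was removed (open diamonds). The intervals of C1qa (0.34 to 1.30) and Lyz2 (0.11 to 0.85) lie above 0 before adjustment over all genes.

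Ratios to Csf1r within a library, which do not depend on library scaling, were compared for 5 pairings of counts. The summed C1q counts were 1.48, 2.91 and 2.07 times the Csf1r count in Gpr115-KO and 1.23, 1.52 and 1.77 times in WT. The difference in mean log2 ratio was 0.48 (exact permutation test, two-sided, p = 0.3). Lyz2 was 1.57, 2.12 and 1.498 times Csf1r in Gpr115-KO and 0.825, 1.36 and 1.20 times in WT, a log2 difference of 0.63. Cd68 was 0.427, 0.513 and 0.467 times Csf1r in Gpr115-KO and 0.420, 0.381 and 0.383 times in WT, a log2 difference of 0.25. For Lyz2 and Cd68 all Gpr115-KO ratios were above the WT ratios, which gives p = 0.1 in the exact permutation test, the smallest p that 3 against 3 allows (0.25 after Benjamini-Hochberg adjustment over 5 ratios). Tyrobp over Csf1r differed by 0.57 and Fcer1g over Csf1r by 0.16 on the log2 scale (exact permutation p = 0.3 and 0.5). With 1 library left out, the C1q difference ran from 0.24 without Gpr115-KO replicate 2 to 0.72 without Gpr115-KO replicate 1, that of Tyrobp from 0.38 without Gpr115-KO replicate 2 to 0.76 without WT replicate 2, and that of Fcer1g from 0.04 without Gpr115-KO replicate 3 to 0.25 without WT replicate 2. For Lyz2 the range was 0.42 without WT replicate 1 to 0.78 without WT replicate 2, and for Cd68 it was 0.18 without Gpr115-KO replicate 2 to 0.31 without Gpr115-KO replicate 1. In each pairing Csf1r is the longest gene, and the part of the length trend in these ratios was not tested. All 5 ratios share the Csf1r count and its overlap with Hmgxb3, so they are not independent of each other.

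Levels can be compared between genes only per length, here as CPM per kilobase of annotated exons. That length joins the exons of all annotated transcripts of a gene and can exceed that of the transcripts present, which lowers the value. Ptprc has the longest, at 18313 bases. Itgam shares 3450 of its 5024 exonic bases with Gm49368, so reads may be missing from its value and its rank is uncertain. In Gpr115-KO the order of mean levels was Lyz2 (31.4 ± 2.36), C1qb (24.3 ± 7.54), Tyrobp (21.2 ± 2.57), Fcer1g (18.5 ± 5.93), C1qa (11.8 ± 1.69), Cd68 (9.04 ± 1.38), C1qc (6.60 ± 2.04), Csf1r (4.22 ± 0.713), Ptprc (0.373 ± 0.191) and Itgam (0.131 ± 0.0341) CPM per kilobase (SD, n = 3). Neighbours from Lyz2 down to Csf1r did not differ beyond their SD, while Csf1r and Ptprc, and Ptprc and Itgam, did. In WT the order was Lyz2 (22.5 ± 3.54), C1qb (19.3 ± 4.06), Fcer1g (17.7 ± 0.775), Tyrobp (15.8 ± 2.57), Cd68 (8.41 ± 1.30), C1qa (6.69 ± 0.564), C1qc (6.16 ± 0.849), Csf1r (4.62 ± 0.455), Ptprc (0.444 ± 0.277) and Itgam (0.124 ± 0.0457) CPM per kilobase (SD, n = 3). There the gaps wider than the SD lay between Tyrobp and Cd68, between C1qc and Csf1r and between Csf1r and Ptprc. C1qa ranked above Cd68 in Gpr115-KO and below it in WT, a description with no test.

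Other macrophage genes were read from a list of 25. Of 23 tested, none was called, 16 had a fitted change above 0 and the median log2 fold change was 0.10. The smallest p-values belonged to Ms4a7, a macrophage surface gene of the MS4A family, with 11.5, 18.1 and 19.1 CPM in Gpr115-KO and 8.43, 11.7 and 11.9 CPM in WT (log2 fold change 0.61, SE 0.25, edgeR adjusted p = 0.355). Ctss, the lysosomal protease cathepsin S, had 12.0, 20.3 and 23.1 CPM in Gpr115-KO and 12.3, 8.98 and 14.2 CPM in WT (0.64, SE 0.27, edgeR adjusted p = 0.370). In both genes Gpr115-KO replicates 2 and 3 were above all WT libraries and replicate 1 was within their range, the order seen in C1qb.

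A single library carried much of this. Gpr115-KO replicate 3 was the highest of the 6 libraries in 14 of the 23 genes, and Gpr115-KO replicate 2 the lowest in 12. Adgre1, which encodes the F4/80 antigen, had 10.03, 9.73 and 16.6 CPM in Gpr115-KO and 10.2, 9.89 and 13.9 CPM in WT. Cx3cr1, the fractalkine receptor, had 14.6, 14.5 and 26.1 CPM in Gpr115-KO and 15.5, 19.7 and 16.3 CPM in WT. Both were named after their values were seen, as examples of this pattern. Without Gpr115-KO replicate 3 the median log2 fold change of the 23 genes was −0.14, with 7 above 0, and that of the 9 tested C1q and marker genes was −0.03, with 4 above 0. Without that library C1qa (0.82), Lyz2 (0.45) and Tyrobp (0.40) had values close to those of all 6 libraries. Leaving out any other library instead left both medians above 0. That of the 9 genes was then 0.33 without Gpr115-KO replicate 1 (8 above 0), 0.22 without Gpr115-KO replicate 2, and 0.20, 0.31 and 0.16 without WT replicates 1, 2 and 3. That of the 23 genes was 0.22 and 0.20 without Gpr115-KO replicates 1 and 2, and 0.11, 0.16 and 0.07 without WT replicates 1, 2 and 3.

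**Figure D4:**
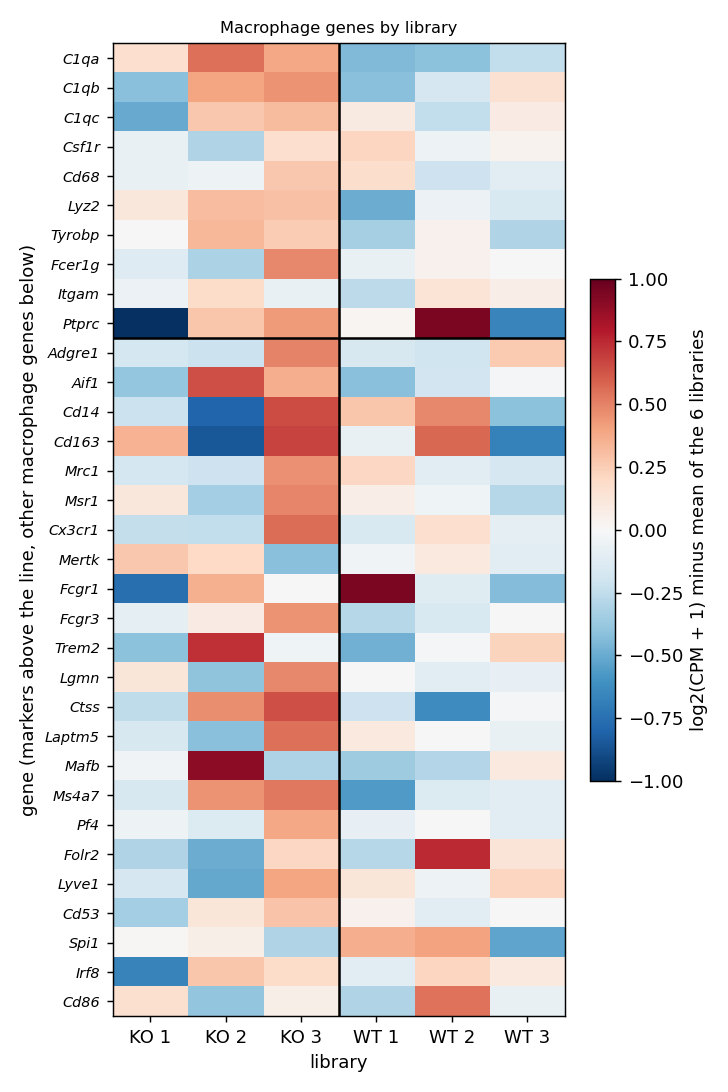
Log2(CPM + 1) minus the mean of the 6 libraries for the 10 genes (above the line) and 23 other macrophage genes (below it), with Gpr115-KO libraries left of WT libraries and colours limited to −1 to 1. Gpr115-KO replicate 3 is the highest library in 14 of the 23 other macrophage genes, while C1qa and Lyz2 are high in all 3 Gpr115-KO libraries.

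Cells other than macrophages that use some of these genes were read from lists of their markers. Neutrophils share Lyz2, Tyrobp, Fcer1g, Itgam and Ptprc with macrophages. The summed level of 15 neutrophil genes was 39.4, 45.9 and 39.4 CPM in Gpr115-KO and 12.8, 21.1 and 22.4 CPM in WT. None of the 8 tested was called, all 8 had a fitted change above 0, and the median log2 fold change was 1.38. On the log2 scale the difference was 1.50 for Mpo, the granule peroxidase (SE 0.33, edgeR adjusted p = 0.151), and 1.81 for S100a9, a subunit of calprotectin (SE 0.48, edgeR adjusted p = 0.218). Counts were low: Mpo had 46, 99 and 72 in Gpr115-KO and 25, 22 and 31 in WT. S100a9 had 31, 41 and 21 in Gpr115-KO and 6, 10 and 11 in WT. DESeq2 called Mpo. Ly6g, a defining neutrophil surface gene, had at most 5 counts in any library, and the part of neutrophils in the Lyz2 and Tyrobp values was not tested.

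Osteoclasts, the bone-resorbing relatives of macrophages, use Csf1r, Tyrobp and Fcer1g. Their 13 genes summed to 156, 135 and 136 CPM in Gpr115-KO and 117, 119 and 115 CPM in WT. None of 9 tested was called, 8 lay above 0 and the median log2 fold change was 0.29, with Ctsk, the osteoclast protease cathepsin K, at 0.66 (SE 0.18, edgeR adjusted p = 0.233) and Mmp9 at 0.61 (SE 0.32, edgeR adjusted p = 0.461). The osteoclast median was 0.08 without Gpr115-KO replicate 3 and 0.22 to 0.35 without any other library. The erythroid genes summed to 306, 396 and 159 CPM in Gpr115-KO and 139, 143 and 159 CPM in WT. None of 6 tested was called, all lay above 0 and the median was 1.34, with Slc4a1 at 1.47 (SE 0.37, edgeR adjusted p = 0.196) and Hbb-bt at 1.45 (SE 0.38, edgeR adjusted p = 0.223). DESeq2 called both of these and Hbb-bs, and without Gpr115-KO replicate 3, the library with the lowest erythroid sum in Gpr115-KO, edgeR called Hbb-bs (1.58, adjusted p = 0.00668) and Hbb-bt (1.80, adjusted p = 0.0219). The part of osteoclasts and of blood in the C1q and marker values was not tested.

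Lymphocyte and dendritic cell genes were scarce, as were the mast cell genes other than Kit. Of 13 lymphocyte genes 2 passed the count filter, Cd3d at 0.14 (SE 0.49) and Lck at −0.03 (SE 0.38) on the log2 scale, and the list summed to 7.68 to 8.43 CPM in Gpr115-KO and 4.78 to 8.52 CPM in WT. Of 7 mast cell genes 2 passed, Kit at −0.81 (SE 0.37) and Cma1 at −0.01 (SE 0.69). Kit made up nearly all of the list's sum of 52.7 to 128 CPM in Gpr115-KO and 112 to 218 CPM in WT. Fcer1a and Ms4a2, the partners of Fcer1g in the IgE receptor of mast cells, had 0 counts in all 6 libraries, which allows levels of up to 0.272 to 0.342 CPM in a library. Of 7 dendritic cell genes Zbtb46 passed, at −0.36 (SE 0.33), and the list summed to 3.85 to 5.58 CPM in Gpr115-KO and 4.47 to 7.39 CPM in WT. No gene of these lists was called (edgeR adjusted p 0.418 to 0.998).

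**Figure D5:**
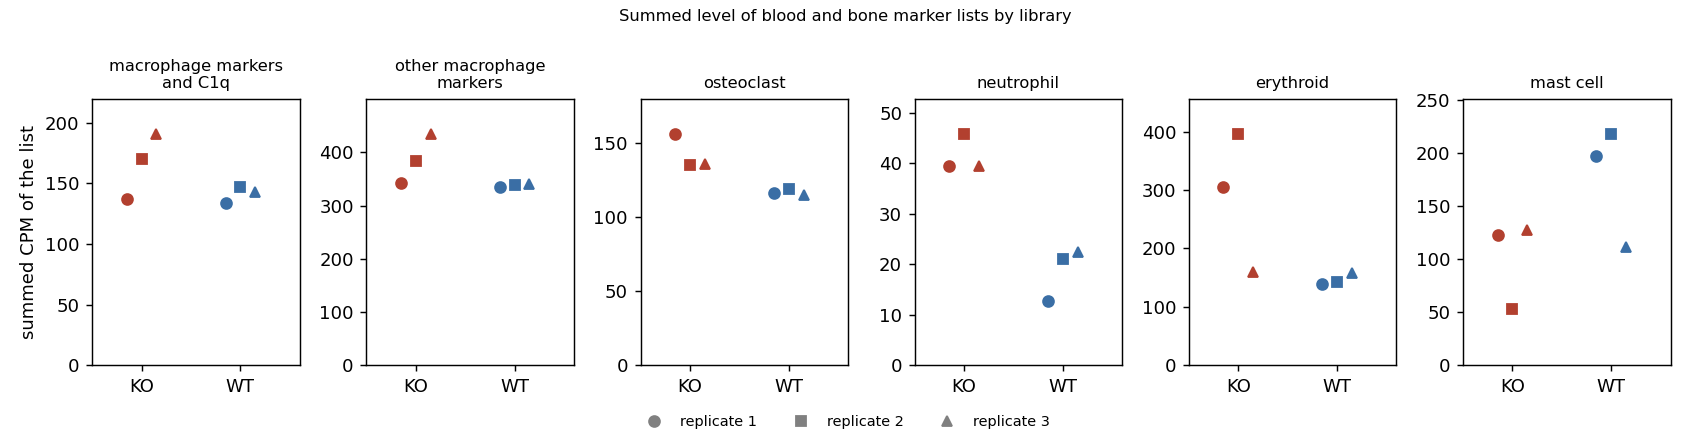
Summed CPM (linear axes from 0, a separate scale for each list) of the 10 genes and of 5 other marker lists in each library, Gpr115-KO (KO, red) left of WT (blue), with marker shape for the replicate number. The neutrophil sums are 39.4 to 45.9 CPM in the Gpr115-KO libraries and 12.8 to 22.4 CPM in the WT libraries.

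The complement cascade beyond C1q was read from 37 genes, of which 20 were tested. None was called, 7 had a fitted change above 0, and the median log2 fold change was −0.04. C1ra, encoding the protease C1r that C1q activates, had 7.07, 2.99 and 8.14 CPM in Gpr115-KO and 5.89, 5.46 and 6.61 CPM in WT (log2 fold change 0.02, SE 0.35). C1s1, encoding C1s, had 16.6, 11.0 and 22.3 CPM in Gpr115-KO and 23.6, 19.4 and 14.0 CPM in WT (−0.19, SE 0.28). Serping1, encoding the C1 inhibitor, had 133, 82.0 and 231 CPM in Gpr115-KO and 172, 151 and 140 CPM in WT (−0.05, SE 0.32). In all 3 genes Gpr115-KO replicate 2 was the lowest library, whereas in the C1q genes it was among the highest.

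The smallest p-values of the complement list belonged to Cd93, a surface protein of endothelial and myeloid cells once described as a C1q receptor, at −0.37 (SE 0.18, edgeR adjusted p = 0.438), and Calr, encoding calreticulin, which can bind C1q, at 0.35 (SE 0.18, edgeR adjusted p = 0.462). The anaphylatoxin receptors C3ar1 and C5ar1 stood at −0.27 (SE 0.24) and −0.41 (SE 0.35). C6, C7, C9, Cfd, Cfi, Mbl1 and C4bp had 0 counts in every library. C3, the central component, had 6, 0 and 0 counts in Gpr115-KO and 0, 2 and 0 counts in WT.

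The partners of the receptors and adaptors were read from 22 genes, of which 14 were tested and none called. The median log2 fold change was −0.16, with 5 above 0. Csf1, which encodes a ligand of Csf1r, had 4.67, 4.60 and 6.04 CPM in Gpr115-KO and 6.26, 5.46 and 5.39 CPM in WT (log2 fold change −0.16, SE 0.26, edgeR adjusted p = 0.844). Il34, the other ligand, was under the count filter at 0.366 to 0.748 CPM in Gpr115-KO and 0.682 to 0.813 CPM in WT. Syk, the kinase recruited by Tyrobp and Fcer1g, stood at 0.49 (SE 0.38, edgeR adjusted p = 0.632). The smallest p-values were those of Grb2, a general signalling adaptor, at 0.52 (SE 0.19, edgeR adjusted p = 0.302), and Lyn, a Src-family kinase, at −0.52 (SE 0.22, edgeR adjusted p = 0.370).

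Among 8739 genes with a mean of at least 10 CPM, the 3 whose profile over the 6 libraries lay closest to the mean profile of C1qa, C1qb and C1qc were Manf, Sys1 and Slain2. Their root mean square differences from it on the log2(CPM + 1) scale, each profile centred on its mean, were 0.05, 0.06 and 0.07, against a median of 0.35. Manf had 92.0, 150 and 134 CPM in Gpr115-KO and 91.3, 89.2 and 102 CPM in WT, high like the C1q profile in Gpr115-KO replicates 2 and 3. This likeness over 6 libraries is a description.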

How the data were processed

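RNA from first molars was made into libraries with a Nextera XT kit, which does not mark strand, and read as paired ends, per the labels' protocols. The submitters' processing notes name STAR 2.5.2a, the packages edgeR, limma and DESeq2, and GRCm38 (mm10). No source used here names the counting tool. Raw counts per gene were deposited. The authors also deposited a normalized table whose signal is CPM scaled by TMM, as its values show: 100% of them were whole reads (tolerance 0.01 reads) when each column was multiplied by a constant, all equal to the counts. edgeR on these recovered reads called 6 higher and 18 lower genes, as on the counts. Rows for 15 transgenes, with at most 8 counts in a library, were left out.

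The test was that of edgeR 4.0.16 (R 4.3.3) on the counts: filterByExpr (minimum count 10, minimum total 15), TMM, genotype as the only term, a robust quasi-likelihood fit, a two-sided F test and Benjamini-Hochberg adjustment over all 16011 tested genes, with 0.05 as the threshold. The SE is the absolute log2 fold change over the square root of F, and intervals use the fit's degrees of freedom. CPM carry no pseudocount except where given. Positions and exonic lengths are from GENCODE vM21, and near-identical transcripts were sought with blastn (at least 85% identity over 150 bases). The number of counts limits the precision, as does the spread between libraries. At the depths given in the report, a count of 0 allows 3 counts.

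Named genes were the 10 genes, the called or else the 2 tested genes of smallest p of each of 10 lists, Adgrf4, and the 3 genes nearest in profile. Every other gene named is outside this rule and was added after its values were seen: list members for their known roles (such as C1ra, C1s1, Serping1, C3ar1, C5ar1, C3, Csf1, Il34, Syk, Ly6g, Fcer1a, Ms4a2 and those at 0 counts), as examples of a pattern or as called under an alternative, and overlapping or near-identical genes. The genes and lists were chosen with earlier results of these data known. Alternatives were DESeq2 size factors, library totals, either no count filter or a stricter one (10 counts in each library), limma-voom (limma 3.58.1), the Wald test of DESeq2 1.42.0, a replicate block, removal of the gene length trend (lowess, span 0.3) and each library left out, and, added after seeing the data, the recovered reads.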

Additional observations from a re-analysis of the deposited data

How the results depend on the processing

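None of the 9 tested marker genes was called under any of the 15 alternatives, so the count of calls stayed at 0 in each direction. The recovered reads equal the counts and gave the same values, so that alternative adds no check. C1qa, C1qb, Csf1r, Lyz2 and Tyrobp kept the sign of their log2 fold change under all 15, but with 1 library left out C1qb ran from 0.18 to 0.57 and Csf1r from −0.26 to −0.02. The others, all within their spread, changed sign under some. With the gene length trend removed the log2 fold change was −0.011 for Cd68, −0.083 for Fcer1g and 0.061 for Ptprc. With 1 library left out it ran from −0.051 to 0.33 for C1qc, −0.03 to 0.24 for Cd68, −0.22 to 0.24 for Fcer1g and −0.57 to 0.36 for Ptprc. The ratios to Csf1r kept their sign whichever library was left out, while the log2 difference ran from 0.24 to 0.72 for C1q and 0.04 to 0.25 for Fcer1g. All 5 ratios share the Csf1r count, whose own log2 fold change was −0.13, so their signs are not independent. No consistent pairing of same-numbered libraries was seen: the correlation of their deviations was 0.26, 0.04 and −0.08. For pairs of unlike number it ran from −0.19 to 0.16. The check cannot show that libraries are unpaired, because each group held only 3. With the replicate block 18 genes were called higher and 54 lower over the whole table, and none of the markers was. Over all genes, in place of 6 higher and 18 lower, 135 and 365 were called with no count filter, 65 and 184 with DESeq2, 11 lower on library totals alone, and 5 to 10 higher and 7 to 39 lower with 1 library left out. The causes were not tested. DESeq2 called Mpo among the neutrophil genes and Hbb-bs, Hbb-bt and Slc4a1 among the erythroid genes, and edgeR called Hbb-bs and Hbb-bt without Gpr115-KO replicate 3. With no count filter Ctsk, S100a8, S100a9, Mpo, Camp and 5 erythroid genes were called. At 4 to 8 counts for Itgam, depth limits the precision. For C1qa, at 59 to 135 counts, the SE also holds the spread between libraries. Clu, of the complement list, had 3923 to 9075 counts and an SE of 0.365, against 0.218 for C1qa.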

Other observations

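C4b, which encodes the complement component that C1s cleaves, was looked up after its values were seen. It had 3, 477 and 6 counts in Gpr115-KO and 3, 0 and 0 in WT, so that 1 library, Gpr115-KO replicate 2, held 51.0 CPM and no other more than 0.549 CPM. It was not tested, because it did not pass the count filter. C4b lies on chromosome 17, as does its near copy C4a, which had at most 4 counts in any library, and the handling of reads common to both is not stated.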
